A study of Mus musculus with 24 samples.

Results

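Gng13, Arhgap36, Opn3, Shc2 and Abcg4 are 5 genes for signalling and transport proteins, described here across EDL and SOL muscles with and without OSKM induction. They are 5 of the 24537 genes of the deposited count table, found by symbol, and all 5 passed the filter on low counts. They were chosen by their counts in these libraries, for large rises in Cre+ EDL muscles over near-silent Cre- libraries or for a change that was larger in EDL than in SOL. The values of 2.5 and 8.5 days are therefore given as a description in both muscles, without a test. Tests of the 5 genes are given for 5.5 days only, a time absent from the RNA-seq results of the study. The study's methods set aside samples without OSKM overexpression as outliers, and the 5.5-day libraries may be those samples. Some Cre+ libraries of 5.5 days held little Pou5f1, as given below, so a gene not called there may reflect weak induction or time, which was not tested. The rule of choice names no time, and if the 5.5-day counts had a part in it, those p-values are too small.

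RNA was sequenced from whole extensor digitorum longus (EDL, mostly fast-twitch) and soleus (SOL, mostly slow-twitch) muscles of mice aged 2 months. All mice, controls included, were heterozygous for the Dox-inducible OSKM cassette and for an rtTA trans-activator behind a LoxP-flanked STOP (4Fhet), and all drank water with 1 mg/ml doxycycline (Dox) over periods of 2.5, 5.5 and 8.5 days. Acta1-Cre+/4Fhet mice (Cre+) remove the STOP in the cells that drive Cre from the skeletal actin promoter, the myofibers. Acta1-Cre-/4Fhet mice (Cre-) do not. By this design Dox is meant to induce Oct4, Sox2, Klf4 and c-Myc only in Cre+ myofibers. Each of the 12 groups (muscle, genotype and time) has 2 libraries, 24 in all, and the labels name no pooling of animals. Whole muscle also holds cells other than myofibers, and in such samples fewer cells of a type and less RNA per cell cannot be told apart.

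Gng13 encodes a gamma subunit of heterotrimeric G proteins, best known with gustducin in taste receptor cells and in olfactory neurons. A G protein carries the signal of a receptor as an alpha subunit and a beta-gamma pair. Opn3 (encephalopsin) is an opsin, a receptor of the same heptahelical family, found in brain and other tissues outside the eye. Shc2 is an adaptor of the Shc family, which links activated receptor tyrosine kinases through Grb2 and Sos to Ras and is known mainly from neurons. Arhgap36 belongs by sequence to the GTPase-activating proteins of the Arhgap genes but is known for blocking the catalytic subunit of protein kinase A and so for releasing Gli factors of the Hedgehog pathway. Abcg4 is an ATP-binding cassette half-transporter of sterols, with its main expression in brain.

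In mm10 (GRCm38), Gng13 lies on chromosome 17 from 25717172 to 25719102 on the plus strand, with 409 exon bases. Arhgap36 lies on chromosome X from 49470450 to 49500250 on the plus strand (3024 exon bases). Opn3 lies on chromosome 1 from 175662421 to 175692632 on the minus strand (1763 exon bases), Shc2 on chromosome 10 from 79617938 to 79637918 on the minus strand (3942 exon bases) and Abcg4 on chromosome 9 from 44273190 to 44288244 on the minus strand (3609 exon bases). The 5 genes thus lie on 5 different chromosomes. A pair of them overlaps another gene of the table. The last 73 bases of Gng13 overlap the end of Chtf18 (25719030 to 25727415), which runs on the opposite strand. Chml (175682238 to 175688353) lies within the span of Opn3 on the same strand, and 6116 bases are common to both spans.

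The bases just before the start of 4 of the genes are shown, so that the core motifs of the 4 induced factors, which bind DNA, can be looked up in them. They come from RefSeq (GRCm38.p6) and stop where an exon of a protein-coding gene begins. For Gng13 the stretch is chr17:25716922-25717170 (plus strand), for Arhgap36 chrX:49470200-49470449 (plus strand), for Shc2 chr10:79637919-79638168 (minus strand) and for Opn3 chr1:175692777-175692831 (minus strand, 55 bases, since annotated Opn3 and Chml exons cover the rest). They read 5′ to 3′, with capitals for the single motif found.
Gng13: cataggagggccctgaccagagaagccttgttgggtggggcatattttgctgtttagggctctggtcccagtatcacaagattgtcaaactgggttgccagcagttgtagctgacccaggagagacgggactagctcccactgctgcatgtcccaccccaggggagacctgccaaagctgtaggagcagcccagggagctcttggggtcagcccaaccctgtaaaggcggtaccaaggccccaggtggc
Arhgap36: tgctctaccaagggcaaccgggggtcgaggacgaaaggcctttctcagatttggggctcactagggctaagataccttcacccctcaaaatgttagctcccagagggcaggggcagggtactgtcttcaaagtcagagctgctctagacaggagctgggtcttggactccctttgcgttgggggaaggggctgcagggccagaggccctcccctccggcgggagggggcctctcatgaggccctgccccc
Shc2: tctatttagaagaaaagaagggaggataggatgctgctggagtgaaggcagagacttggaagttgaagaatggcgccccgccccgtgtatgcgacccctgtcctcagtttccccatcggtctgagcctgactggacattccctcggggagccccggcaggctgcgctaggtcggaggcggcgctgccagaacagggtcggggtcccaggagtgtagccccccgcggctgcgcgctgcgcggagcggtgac
Opn3: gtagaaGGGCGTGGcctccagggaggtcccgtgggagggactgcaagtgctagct

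The windows of 250 bases before the start were searched on both strands for the octamer ATGCAAAT of Oct4, for CATTGT of Sox factors, for the E box CACGTG of Myc and for GGGNGTGG of Klf factors. The Opn3 window held 1 Klf match, the capitals above, and no other match was found in the 4 windows. Gng13 and Arhgap36 have 2 RefSeq windows each, and only that of the counted transcript is described. Among all 32851 such windows, 1.60% held the octamer, 10.7% the Sox motif, 6.02% the E box and 15.9% the Klf motif. The match is a description of letters and not of a bound site. The GC content of the windows was 58.8% for Gng13, 62% for Arhgap36, 70.4% for Opn3 and 64% for Shc2, against a median of 52.4% over all windows (quartiles 45.2% and 61.2%). The Opn3 and Shc2 windows held 23 and 19 CG dinucleotides, Arhgap36 held 6 and Gng13 2, where the median of all windows is 6. Of the 250 bases of the Opn3 window, 195 lie in annotated exons.

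Libraries held between 36088781 and 54679082 counts, which puts the limit behind a count of 0 at 3 counts, or 0.0549 to 0.0831 CPM. Such limits and the counting intervals given here take in no error but that of counting. Levels are FPKM, counts scaled by exon length and by the library's total, and log2 fold changes come from edgeR's quasi-likelihood fit after TMM normalization. To be called, a gene needed a log2 fold change beyond 0.5 in either direction and a p, adjusted after Benjamini and Hochberg, under 0.05. The fast fibre markers summed to between 65707 and 93276 CPM in Cre- EDL libraries and to between 8266 and 15904 CPM in Cre- SOL libraries, and the slow fibre markers to between 111 and 1305 CPM against 26806 to 45442 CPM, so the muscles carried their labels. Pou5f1 (Oct4) had 0 to 5 counts in the 12 Cre- libraries. In Cre+ EDL libraries it had 1129 and 4206 counts after 2.5 days, 64 and 1686 after 5.5 days and 5439 and 3683 after 8.5 days. In Cre+ SOL libraries it had 313 and 531, 4 and 22, and 857 and 414 counts. In SOL the 5.5-day libraries thus held the least Pou5f1, while in EDL replicate 1 of 5.5 days was lowest and replicate 2 lay between the 2.5-day libraries. By edgeR all 4 factors were called higher in Cre+ EDL muscles after 2.5 and 8.5 days, but only Pou5f1 and Sox2 in SOL. In SOL Klf4 changed by 0.08 and -0.04 on the log2 scale, and Myc by 2.18 and 2.37 (edgeR adjusted p = 0.0971 and 0.056). The study also reports similar Klf4 levels in Cre+ and Cre- SOL muscles.

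In Cre+ EDL muscles all 5 genes lay above the controls after 2.5 and after 8.5 days, with both Cre+ libraries above both Cre- libraries of the day on the CPM scale for 5 of 5 genes each time. Over all genes tested this order was found for 52.1% after 2.5 days and for 40.3% after 8.5 days, and 13.8% and 7.63% of all genes were called higher (10.2% and 6.5% lower). When libraries were scaled by their size alone instead of TMM, the genes called after 2.5 days split into 4207 higher and 610 lower, in place of 2118 and 1566, as the median of all genes then moved from -0.05 to 0.28 on the log2 scale. After 8.5 days the split was 1956 and 542, in place of 1173 and 999, and the median moved from -0.02 to 0.16. The changes of the 5 genes were between 3.29 and 7.69 after 2.5 days and between 1.93 and 9.41 after 8.5 days on the log2 scale of the main fit. Since these contrasts chose the genes, nothing is read from their count.

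**Figure D1:**
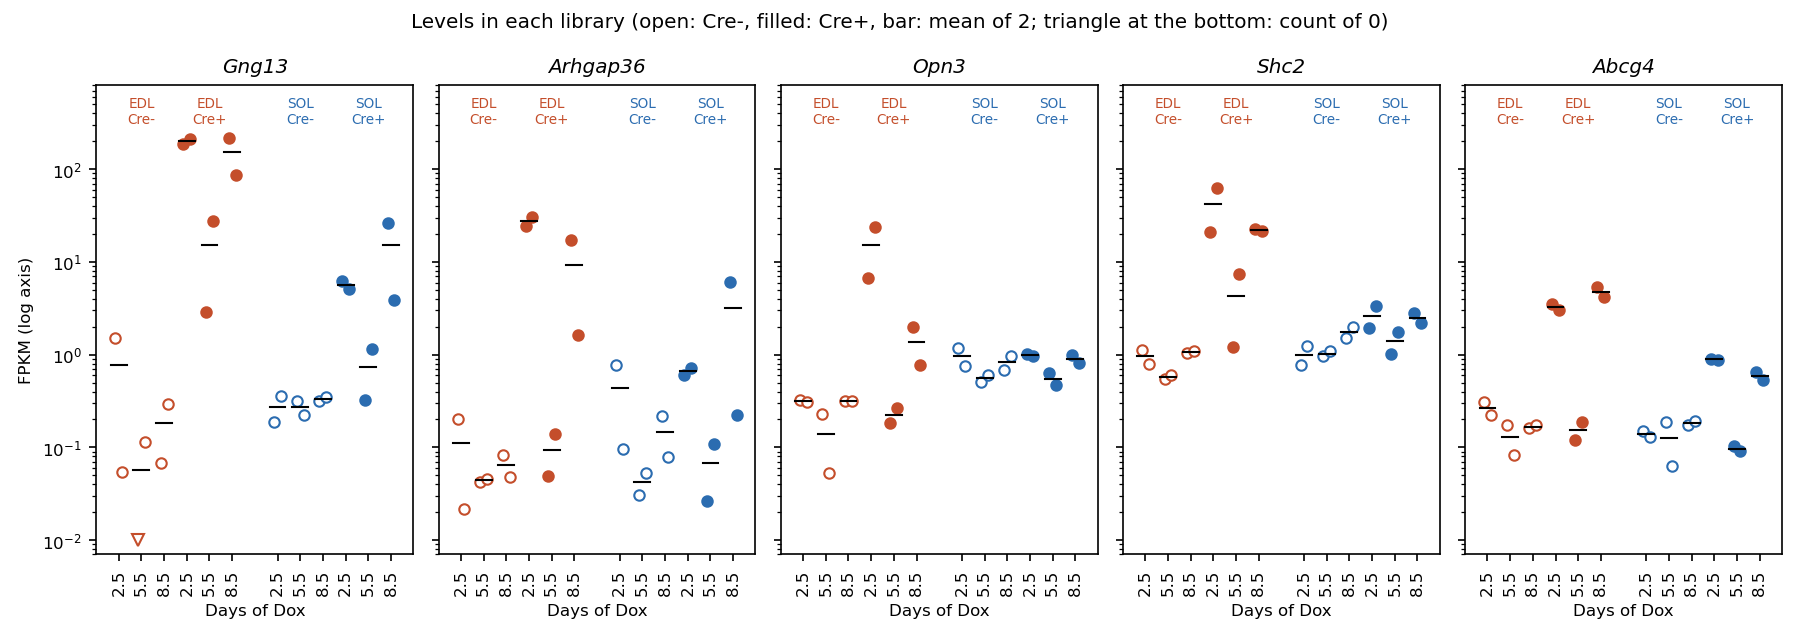
FPKM (log axis) of the 5 genes in each of the 24 libraries, by muscle, genotype and days of Dox; open symbols are Cre- and filled circles Cre+ libraries, bars are means of 2 libraries, and the triangle marks a count of 0. Gng13 stands at 187 and 214 FPKM in Cre+ EDL muscles after 2.5 days, while after 5.5 days Arhgap36, Opn3 and Abcg4 lie among or next to the Cre- values in both muscles.

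Gng13 had the highest level per length of the 5 genes in 6 of 6 Cre+ EDL libraries. It had 187 and 214 FPKM after 2.5 days of Dox (200.3 ± 18.8, SD, n = 2). After 8.5 days it had 219 and 87.0 FPKM (153.2 ± 93.6, SD, n = 2). The 6 Cre- EDL libraries lay between 0 and 1.49 FPKM with a median of 0.0905, so no Cre- library came near. These correspond to 3658 and 3872 counts after 2.5 days against 27 and 1 in Cre- EDL, and to 4759 and 1689 counts after 8.5 days against 1 and 5. The fitted log2 fold changes were 7.69 (standard error 0.93) and 9.41 (standard error 1.11). The Cre- library with 27 counts stood apart, and without it the change after 2.5 days was 11.36. As a ratio of summed CPM, the level was 262-fold after 2.5 days (95% exact counting interval 181.2 to 394.6) and 829.1-fold after 8.5 days (381 to 2260), intervals that leave out the spread between mice.

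In SOL muscles the Gng13 counts were lower than in EDL. Cre+ SOL libraries had 119 and 86 counts (6.28 and 5.13 FPKM) after 2.5 days and 563 and 80 counts (26.5 and 3.94 FPKM) after 8.5 days, whereas the 6 Cre- SOL libraries had 3 to 7 counts. The groups did not overlap on either day. The log2 fold change was 4.19 (standard error 1.16) after 2.5 days and 5.42 (standard error 1.05) after 8.5 days, and without Cre+ replicate 1 the latter was 3.52. The change was larger in EDL than in SOL by 3.50 (95% interval -1.003 to 8.01) after 2.5 days and by 4.00 (-0.75 to 8.74) after 8.5 days on the log2 scale, and by 7.17 after 2.5 days without the Cre- EDL library of 27 counts. Within Cre+ EDL muscles the log2 change of Gng13 from 2.5 to 8.5 days was -0.31 (95% interval -1.66 to 1.05).

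The gene that overlaps the end of Gng13, Chtf18, a subunit of the alternative clamp loader that aids sister chromatid cohesion, was read beside it. Chtf18 had 66 and 90 counts in Cre+ EDL libraries after 2.5 days against 30 and 29 in Cre- (log2 fold change 1.03, standard error 0.32, adjusted p = 0.0308), and it was not called after 8.5 days (0.24, adjusted p = 0.676). Its 24 libraries held between 25 and 95 counts.

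Arhgap36, the inhibitor of protein kinase A, had 3553 and 4052 counts in Cre+ EDL libraries after 2.5 days against 27 and 3 in Cre- libraries. On the FPKM scale this was 24.6 and 30.2 (27.4 ± 4.01, SD, n = 2), close replicates. After 8.5 days the replicates came apart, with 2747 and 231 counts, or 17.1 and 1.61 FPKM, a factor of 10.6 between them, against 9 and 6 counts in Cre- libraries. Both still lay above the 6 Cre- EDL libraries, which ranged from 0.0217 to 0.202 FPKM (median 0.0469). The fitted log2 fold changes were 7.61 (standard error 1.58) and 6.95 (standard error 1.67), and without the Cre- library of 27 counts, the one in which Gng13 also stood apart, the first was 9.89. Without Cre+ replicate 1 the change after 8.5 days was 4.50. From 2.5 to 8.5 days in Cre+ EDL muscles its log2 change was -1.49 (95% interval -3.86 to 0.89).

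In SOL muscles Arhgap36 had 85 and 89 counts in Cre+ libraries after 2.5 days, between the 91 and 12 counts of the Cre- libraries, and the groups overlapped (log2 fold change 0.44, standard error 1.34). After 8.5 days it had 966 and 34 counts in Cre+ libraries (6.14 and 0.226 FPKM, a factor of 27.1) against 25 and 10 counts in Cre-. Replicate 1 alone was far from the controls. The log2 fold change was 4.37 (standard error 1.47), and without that replicate it was 0.62. The change in EDL was larger by 7.17 (95% interval 2.73 to 11.6) after 2.5 days and by 2.58 (-2.75 to 7.90) after 8.5 days, and by 4.97 after 2.5 days without the Cre- SOL library of 91 counts and 6.33 after 8.5 days without the Cre+ SOL library of 966 counts. The same SOL library also held the highest Gng13 level of the muscle, 26.5 FPKM.

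Opn3, the opsin, showed its largest change after 2.5 days. Cre+ EDL libraries had 564 and 1875 counts (6.69 and 23.997 FPKM), and both Cre- libraries 25 counts (0.321 and 0.311 FPKM). After 8.5 days the Cre+ libraries had 185 and 65 counts (1.98 and 0.777 FPKM) against 20 and 23 in Cre-. The groups did not overlap on either day, but the level after 8.5 days was below that after 2.5 days in both libraries. The log2 fold change over Cre- was 5.24 (standard error 0.58) after 2.5 days and 1.93 (standard error 0.56) after 8.5 days, and between 8.5 and 2.5 days it was -3.37 (standard error 0.51). In Cre+ SOL muscles Opn3 had 83 and 70 counts (1.02 and 0.968 FPKM) after 2.5 days and 92 and 71 (1.00 and 0.810 FPKM) after 8.5 days, all within the 0.509 to 1.17 FPKM of the 6 Cre- SOL libraries. The SOL changes were -0.11 (standard error 0.51) and 0.10 (standard error 0.52), so that the difference between muscles was 5.35 (95% interval 3.70 to 6.99) after 2.5 days and 1.83 (0.17 to 3.48) after 8.5 days.

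Opn3 was the 1 gene of the 5 that edgeR called between the Cre- muscles of 5.5 days, a call limited by its choice, as given below. The 6 Cre- EDL libraries held 4 to 25 counts (median 22.5) and the 6 Cre- SOL libraries 46 to 80 counts (median 51), without overlap. In FPKM these were 0.0525 to 0.321 and 0.509 to 1.17. The share of all genes that separate in this way is not given here. These Cre- counts may also be part of the choice of Opn3, because a low level in Cre- EDL muscles by itself raises the change in EDL over that in SOL. Nothing is therefore read from the lack of overlap. The test at 5.5 days uses 4 of these libraries and may not be independent of that choice either. No conclusion is drawn from its call. Tested at 5.5 days, Opn3 was lower in Cre- EDL than in Cre- SOL by a log2 change of -1.80 (standard error 0.63, adjusted p = 0.0472), where 10.2% of all genes were called lower in EDL (1572, with 1486 higher, or 1967 and 1092 with library size alone). The EDL replicate with 4 counts carried much of this, since without it the change was -1.17 (adjusted p = 0.306). Leaving out SOL replicate 1 or 2 (adjusted p = 0.105 and 0.158), or a fit of the 4 libraries (adjusted p = 0.0516), also ended the call. The other 4 genes were not called there, with changes from -2.23 for Gng13 (adjusted p = 0.647) to 0.20 for Arhgap36 (adjusted p = 0.969). The fit of the 4 libraries did call Shc2 lower in EDL (-0.71, adjusted p = 0.0285).

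Chml, within the span of Opn3, encodes Rab escort protein 2, which presents Rab proteins for prenylation. It had 330 and 631 counts in Cre+ EDL libraries after 2.5 days against 94 and 115 in Cre- (log2 fold change 1.84, standard error 0.31, adjusted p = 0.001). After 8.5 days it had 232 and 137 against 144 and 114 (-0.08, standard error 0.31, adjusted p = 0.908), and it fell between 2.5 and 8.5 days in Cre+ EDL muscles (log2 change -1.44, standard error 0.30, adjusted p = 0.0204), a comparison that called 5.72% of genes in either direction (424 higher and 456 lower, or 324 and 653 with library size alone). Opn3 and Chml were thus both highest in the same library, replicate 2 of Cre+ EDL after 2.5 days. Reads on bases that both genes share cannot be told apart in the counts.

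**Figure D2:**
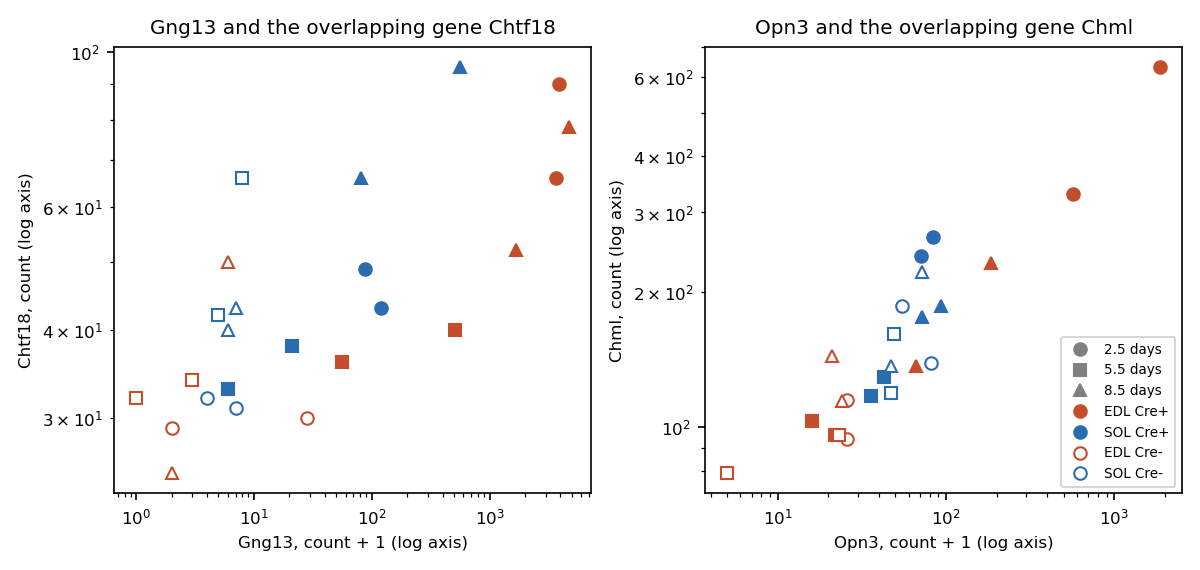
Counts of Gng13 and Chtf18 (left) and of Opn3 and Chml (right) in the 24 libraries, on log axes with 1 added to the counts on the x axis; colours mark the muscle, open symbols Cre- and shapes the days of Dox. Chtf18 stays between 25 and 95 counts while Gng13 runs from 0 to 4759, and Chml reaches its highest count of 631 in the library with the most Opn3.

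Shc2, the Ras-coupling adaptor, had a measurable level in every library. In Cre- EDL libraries it lay between 0.543 and 1.13 FPKM (median 0.915) and in Cre- SOL libraries between 0.774 and 1.99 FPKM (median 1.16), so that its control counts (104 to 326) leave the fold changes with small counting error. In Cre+ EDL muscles it had 3942 and 10998 counts (20.9 and 63.0 FPKM) after 2.5 days and 4740 and 4024 counts (22.7 and 21.5 FPKM) after 8.5 days. No Cre- library overlapped these. The log2 fold changes were 5.10 (standard error 0.45) and 4.19 (standard error 0.44). In Cre+ SOL libraries Shc2 had 356 and 539 counts against 118 and 199 after 2.5 days, and 575 and 432 against 231 and 326 after 8.5 days. Both Cre+ SOL libraries lay above both controls on each day, by log2 changes of 1.24 (standard error 0.41) and 0.48 (standard error 0.40). The change in EDL was larger by 3.85 (95% interval 2.59 to 5.11) and 3.71 (2.47 to 4.95), and these were the closest values between the 2 time points among the 5 genes.

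Abcg4, the sterol transporter, had the lowest standard error of the 5. Cre+ EDL libraries had 603 and 488 counts (3.49 and 3.05 FPKM) after 2.5 days against 49 and 37 in Cre-. After 8.5 days they had 1026 and 710 counts (5.36 and 4.15 FPKM) against 21 and 26. The log2 fold changes were 3.29 (standard error 0.21) and 4.63 (standard error 0.23), and within Cre+ EDL muscles the level was 0.63 higher (standard error 0.18) after 8.5 than after 2.5 days. Abcg4 was the member with the smallest difference between muscles after 2.5 days. Cre+ SOL libraries had 152 and 131 counts against 21 and 19 after 2.5 days (log2 fold change 2.53, standard error 0.23) and 122 and 95 against 24 and 29 after 8.5 days (1.64, standard error 0.22). The groups did not overlap on either day, and EDL exceeded SOL by 0.77 (95% interval 0.09 to 1.44) after 2.5 days and by 2.99 (2.31 to 3.67) after 8.5 days.

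**Figure D3:**
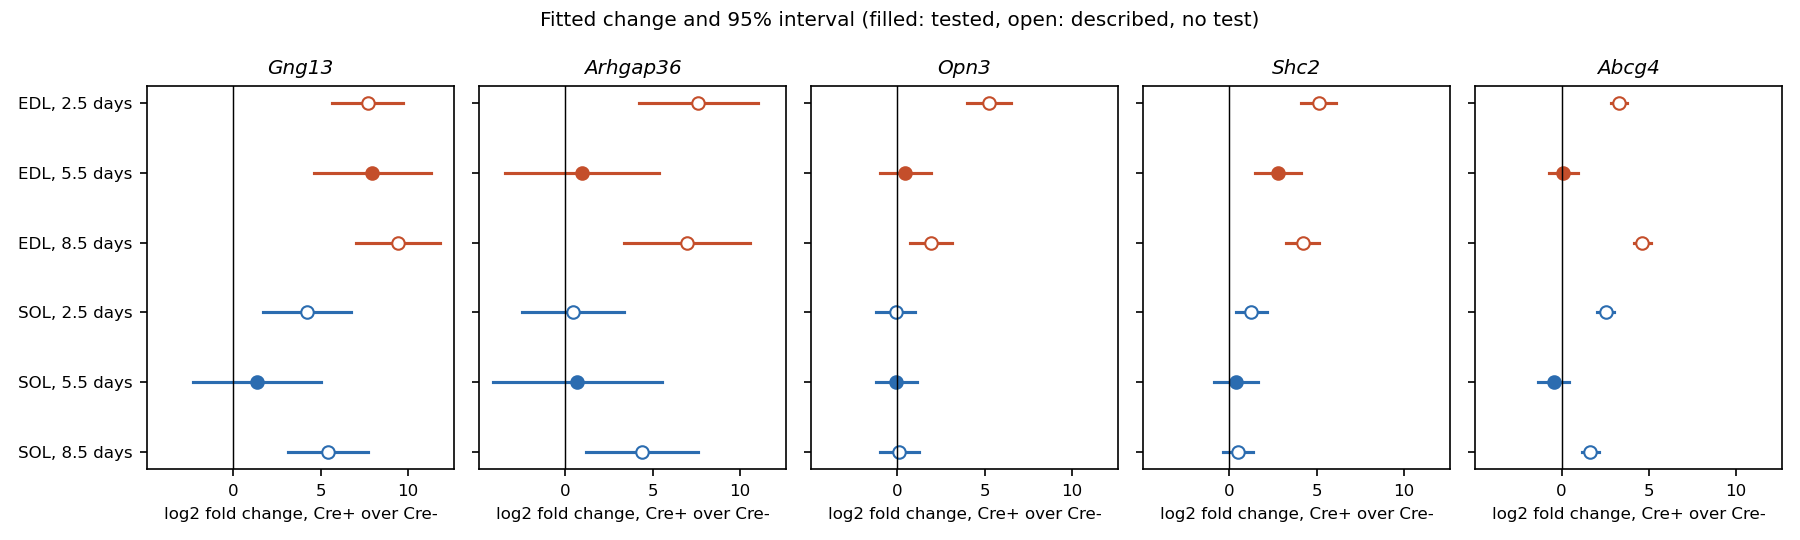
Log2 fold change of Cre+ over Cre- muscles with its 95% interval for the 5 genes in 6 comparisons; filled points were tested and open points are described without a test. Gng13 lies at 7.95 in EDL after 5.5 days, whereas Arhgap36, Opn3 and Abcg4 lie at 0.94, 0.46 and 0.10 with intervals that span 0.

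In SOL muscles, both Cre+ libraries lay above both Cre- libraries for 3 of the 5 genes after 2.5 days (Gng13, Shc2 and Abcg4) and for 4 of 5 after 8.5 days, Opn3 being the exception, where 43.8% and 21.3% of all genes did so. In SOL 0.345% of genes were called higher and 0.039% lower after 2.5 days, and 0.332% and 0.299% after 8.5 days. The difference between the muscles was called higher in EDL for 3.36% of genes after 2.5 days and for 0.533% after 8.5 days. With same-numbered EDL and SOL libraries as a block, taken as 1 mouse, the calls of that difference in either direction went from 654 to 1019 and from 91 to 175. With library size alone, 921 genes were called higher and 80 lower after 2.5 days, in place of 517 and 137. For the 5 genes these differences are part of the choice and carry no test.

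After 5.5 days the 5 genes differed in their counts. In Cre+ EDL muscles Gng13 had 55 and 511 counts (2.88 and 27.6 FPKM) against 0 and 2 in Cre-. Shc2 had 221 and 1325 counts (1.20 and 7.43 FPKM) against 117 and 104. Both genes lay above the controls in both libraries. Arhgap36 had 7 and 19 counts against 7 and 6, with its lower Cre+ library at 1.08 times its higher Cre- library in CPM. Opn3 had 15 and 21 counts against 22 and 4, and Abcg4 20 and 31 against 34 and 13, groups that overlapped.

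Tested with edgeR at 5.5 days in EDL, Gng13 was called (log2 fold change 7.95, standard error 1.59, adjusted p = 0.0449), in a comparison that called 0.258% of all genes higher and placed both Cre+ libraries above both Cre- libraries for 34.8% of genes and for 3 of the 5 (Gng13, Arhgap36 and Shc2). The other 4 genes were not called. Gng13 passed the filter on low counts only through its Cre+ libraries, a selection that favours a difference. It may also have been chosen in part by these counts, for a rise in Cre+ EDL muscles. The p-value may thus be too small, and no conclusion is drawn from the call. Library size alone gave 82 genes higher and 4 lower there, in place of 40 and 7. Since the Cre- libraries held 2 Gng13 counts in all, the size is better read as a ratio of summed CPM of 302 with a 95% exact counting interval from 83.1 to 2496. The call ended in a fit of the 4 libraries (adjusted p = 0.267) and without Cre- replicate 1, Cre- replicate 2 or Cre+ replicate 2 (adjusted p = 0.487, 0.415 and 0.343). It held without Cre+ replicate 1 (adjusted p = 0.00178) and with DESeq2 (adjusted p = 0.000149).

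Shc2 came next with 2.76 (standard error 0.62, adjusted p = 0.0795) and missed the threshold. DESeq2 (adjusted p = 0.00411) and the fit without a filter on low counts (adjusted p = 0.0171) called it, as did the fit without Cre+ replicate 1 (3.55, adjusted p = 0.000557), while without Cre+ replicate 2 the change was 0.91 (adjusted p = 0.632). Abcg4 had the narrowest interval, with a log2 fold change of 0.10 (95% interval -0.72 to 0.92, adjusted p = 0.978). Opn3 had 0.46 (-0.9998 to 1.91, adjusted p = 0.93) and Arhgap36 0.94 (-3.46 to 5.34, adjusted p = 0.962).

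In SOL muscles after 5.5 days, none of the 5 genes was called, and edgeR called 0% of all genes higher (0 in either direction, also with DESeq2, with 597 genes at an unadjusted p under 0.05). The log2 fold changes ran from -0.46 for Abcg4 (14 and 14 counts against 36 and 10) to 1.37 for Gng13 (5 and 20 counts against 7 and 4). Both Cre+ libraries lay above both Cre- libraries for 26.5% of all genes and for 1 of the 5, Gng13, whose lower Cre+ library had 0.132 CPM and its higher Cre- library 0.131 CPM. The difference between EDL and SOL after 5.5 days was called for none of the 5 by edgeR, where 0.0129% of genes were called higher in EDL. It was 6.58 for Gng13 (95% interval 0.06 to 13.1, adjusted p = 1.00) and 2.39 for Shc2 (0.58 to 4.201, adjusted p = 1.00), with unadjusted p values of 0.0482 and 0.0128. With same-numbered EDL and SOL libraries as a block these differences were 6.54 (adjusted p = 0.534) and 2.01 (adjusted p = 0.498).

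Ordering the 12 Cre+ libraries by Pou5f1 shows that the 5 genes did not share 1 order. Replicate 2 of Cre+ EDL after 5.5 days had 27.7 FPKM of Pou5f1, 1.58 times the 17.5 FPKM of replicate 1 after 2.5 days. Sox2, Myc and Klf4 were 1.56, 1.69 and 1.14 times as high in it. Yet every member was lower in it. Shc2 was 2.81 times higher in the 2.5-day library, Gng13 6.77 times, Abcg4 18.4 times, Opn3 25.4 times and Arhgap36 177 times (0.139 against 24.6 FPKM). This pair of libraries was chosen after the values were seen, each is a single library, and time, mouse and library cannot be told apart in it.

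Replicates of 1 group diverged by gene as well. After 2.5 days in EDL, replicate 2 exceeded replicate 1 by a factor of 3.59 for Opn3 and of 3.01 for Shc2, but by at most 1.23 for Gng13 and Arhgap36, while Abcg4 was 1.14 times higher in replicate 1. After 8.5 days in EDL, replicate 1 exceeded replicate 2 by 10.6 for Arhgap36, 2.55 for Opn3 and 2.52 for Gng13, whereas Shc2 and Abcg4 differed by 1.05 and 1.29. Pou5f1 was higher in replicate 2 after 2.5 days (70.5 against 17.5 FPKM) and in replicate 1 after 8.5 days (76.2 against 57.7 FPKM). Exact permutation of 2 against 2 libraries can give no two-sided p below 0.333 for a gene.

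**Figure D4:**
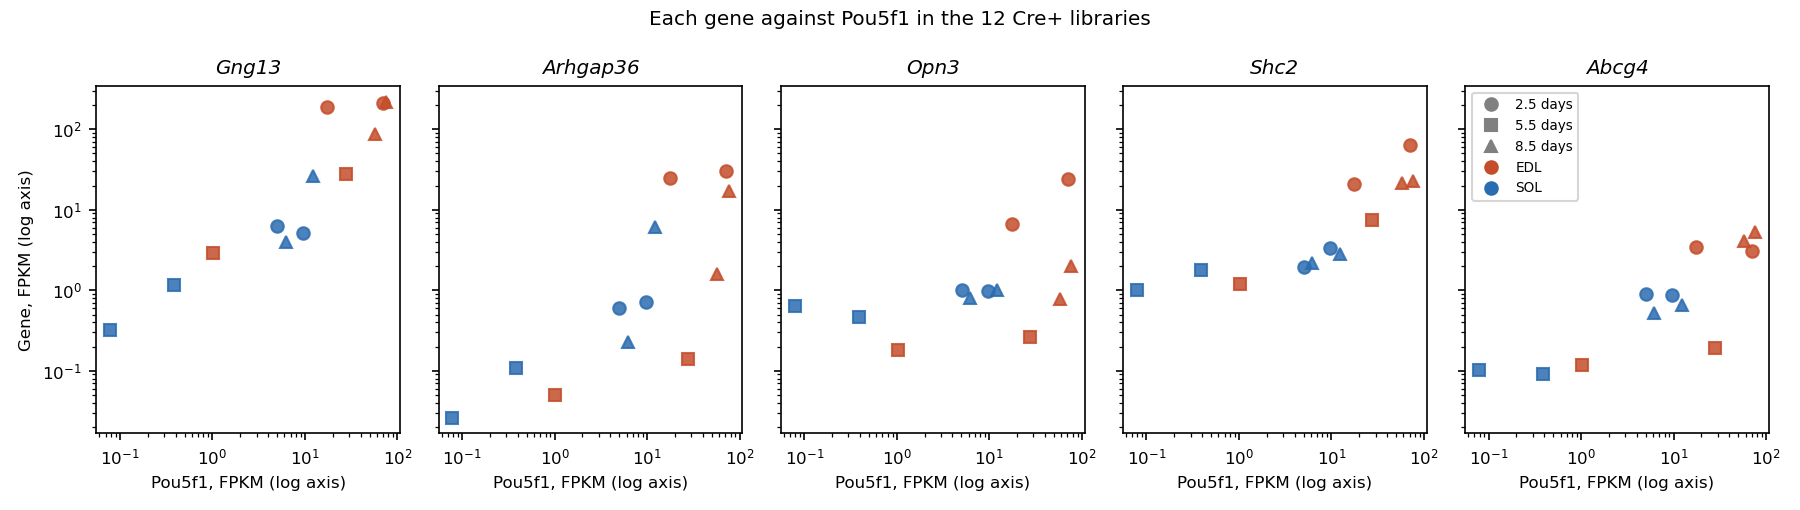
FPKM of each gene against FPKM of Pou5f1 in the 12 Cre+ libraries, both on log axes; colours mark EDL and SOL, shapes the days of Dox. The EDL square at 27.7 FPKM of Pou5f1 lies at 27.6 FPKM of Gng13 but at 0.139 of Arhgap36, 0.263 of Opn3 and 0.19 of Abcg4.

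The genes whose log2(CPM + 0.5) followed each member most closely over the 24 libraries were named by Pearson's r. These libraries fall into Cre+ EDL and other groups, may share the 2 muscles of a mouse and differ in depth, so r describes the pattern only. For Gng13 they were Cfap52 (r = 0.983), a protein of motile cilia, Kcnk5 (0.981), an acid-sensitive potassium channel, and C2cd4c (0.979). Cfap52 ran from 1.74 to 40.6 FPKM in Cre+ EDL libraries and from 0.342 to 1.01 FPKM in Cre- EDL libraries. For Arhgap36, Ngef (0.960), an exchange factor known from ephrin signalling, and Gabrp (0.957), a GABA receptor subunit that stayed under 0.76 FPKM in all libraries, were among them.

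For Opn3 the closest genes were Ttc39c (0.967), Fam171a1 (0.965) and Mgst2 (0.959), a microsomal glutathione transferase that ran from 0.297 to 25.6 FPKM in Cre+ EDL and from 0.0778 to 0.608 FPKM in Cre- EDL libraries. For Shc2 they were Pak4 (0.972), a kinase downstream of Cdc42, Ostf1 (0.970) and Grk6 (0.969), a kinase that desensitizes G protein-coupled receptors. These were genes with a level in control muscle, as Ostf1 had 11.5 to 15.3 FPKM in Cre- and 19.7 to 118.6 FPKM in Cre+ EDL libraries. For Abcg4 they were Mt4 (0.962), a metallothionein of stratified epithelia, Zfp385c (0.957) and Capn2 (0.947), the calpain of most tissues. The choice depends on the measure, because Spearman's rank correlation shared 1 of the 3 genes for Shc2 and 0 of 3 for each of the other members.

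The members' partners and families, taken from 7 lists, were counted beside all genes tested in Cre+ EDL muscles, of which 13.8% were called higher and 10.2% lower after 2.5 days and 7.63% and 6.5% after 8.5 days. Nothing particular to a list is read from its counts. Among 14 tested G protein beta and gamma subunits other than Gng13, 3 were called higher and 3 lower in Cre+ EDL muscles after 2.5 days, and 2 higher and 1 lower after 8.5 days, with a list median of 0.03 and -0.16 on the log2 scale against -0.05 and -0.02 for all genes. Gng12 rose by 1.13 and 0.67 (adjusted p = 0.000713 and 0.0244), with 21.6 ± 7.82 FPKM in Cre+ against 7.81 ± 0.43 FPKM in Cre- muscles (SD, n = 2) at 2.5 days. Gng2 fell by 1.01 and 0.81 (adjusted p = 0.00541 and 0.027). Gnb2, an abundant beta subunit with 57.0 FPKM in Cre- EDL muscles, rose by 0.53 and 0.55 (adjusted p = 0.00517 and 0.00779), and Gng10 rose by 0.78 after 2.5 days (adjusted p = 0.0148). Gng5, the gene of the list with the highest level per length, had 124 FPKM in Cre- and 113 FPKM in Cre+ EDL muscles after 2.5 days. It was not called, as its log2 change of -0.46 (adjusted p = 0.0438) did not pass the limit of 0.5. Gng13, with 200.3 FPKM, had a higher level per length than Gng5 there.

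Of the G protein alpha subunits, 2 of 14 tested were called higher and 0 lower after 2.5 days, and 1 higher and 0 lower after 8.5 days (all genes 13.8% and 10.2%, then 7.63% and 6.5%), with list medians of 0.18 and -0.10. Gna11, which couples receptors to phospholipase C, rose by 0.94 and 0.58 (adjusted p = 0.000238 and 0.0088), and Gna13, another alpha subunit, rose by 0.87 after 2.5 days (adjusted p = 0.00162). Gnas was the most abundant, with 313 FPKM in Cre- and 288 FPKM in Cre+ EDL muscles after 2.5 days, and was not called. Of 6 tested taste signalling partners of Gng13, 2 were called higher and 1 lower after 2.5 days and 0 higher and 1 lower after 8.5 days (list medians -0.27 and 0.14). Itpr3, the inositol trisphosphate receptor of taste cells and other epithelia, rose by 3.44 (adjusted p = 0.000462, 18.5 ± 16.1 against 1.34 ± 0.23 FPKM, SD, n = 2), and Pou2f3, the regulator of tuft and type II taste cells, rose by 3.73 (adjusted p = 0.00367) to 0.848 ± 0.799 FPKM, both after 2.5 days. The umami receptor subunit Tas1r1 fell by 2.23 and 1.55 (adjusted p = 0.00209 and 0.0227). Gnat3, Trpm5 and Tas1r2 did not pass the filter on low counts.

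Among 13 tested genes of the Shc and Ras-coupling list, Nras rose by 0.80 and 0.64 (adjusted p = 0.00251 and 0.0156) and Sos2 fell by 0.53 after 8.5 days (adjusted p = 0.043). No other gene of that list was called, the other Shc genes included, and the list medians were -0.08 and -0.03. Among 19 tested genes of the Hedgehog and protein kinase A list, Cdon, a coreceptor of Hedgehog ligands that also acts in myoblasts, rose by 0.86 and 0.89 (adjusted p = 0.00429 and 0.00614), and no other was called (list medians -0.25 and -0.05).

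Of 31 tested Arhgap genes other than Arhgap36, 3 were called higher and 3 lower after 2.5 days and 0 higher and 3 lower after 8.5 days (all genes 13.8% and 10.2%, then 7.63% and 6.5%), with list medians of -0.13 and -0.02. Arhgap44 and Arhgap11a rose by 1.71 and 1.68 after 2.5 days (adjusted p = 0.0015 and 0.0016), and Arhgap26 fell by 0.93 and 0.75 (adjusted p = 0.00656 and 0.033). Among 15 tested genes of the ABCG and sterol list, 2 were called higher and 3 lower after 2.5 days and 2 higher and 1 lower after 8.5 days, beside the same shares of all genes, with list medians of 0.32 and 0.05. Abcg2 rose by 0.65 and 1.01 (adjusted p = 0.0148 and 0.00235), with 14.5 ± 1.10 FPKM in Cre+ against 6.35 ± 2.06 FPKM in Cre- muscles (SD, n = 2) after 8.5 days. Abcg1, the closest relative of Abcg4, fell by 1.17 after 2.5 days (adjusted p = 0.0358) and was at 0.04 after 8.5 days. The lipoprotein receptor Scarb1 rose by 0.92 after 8.5 days (adjusted p = 0.0052), and the liver X receptor Nr1h2 by 0.66 after 2.5 days (adjusted p = 0.00113). In SOL muscles no gene of the 7 lists was called by edgeR after 2.5 or 8.5 days. Of all genes, 0.345% and 0.332% were called higher there and 0.039% and 0.299% lower, so nothing about the lists is read from this.

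**Figure D5:**
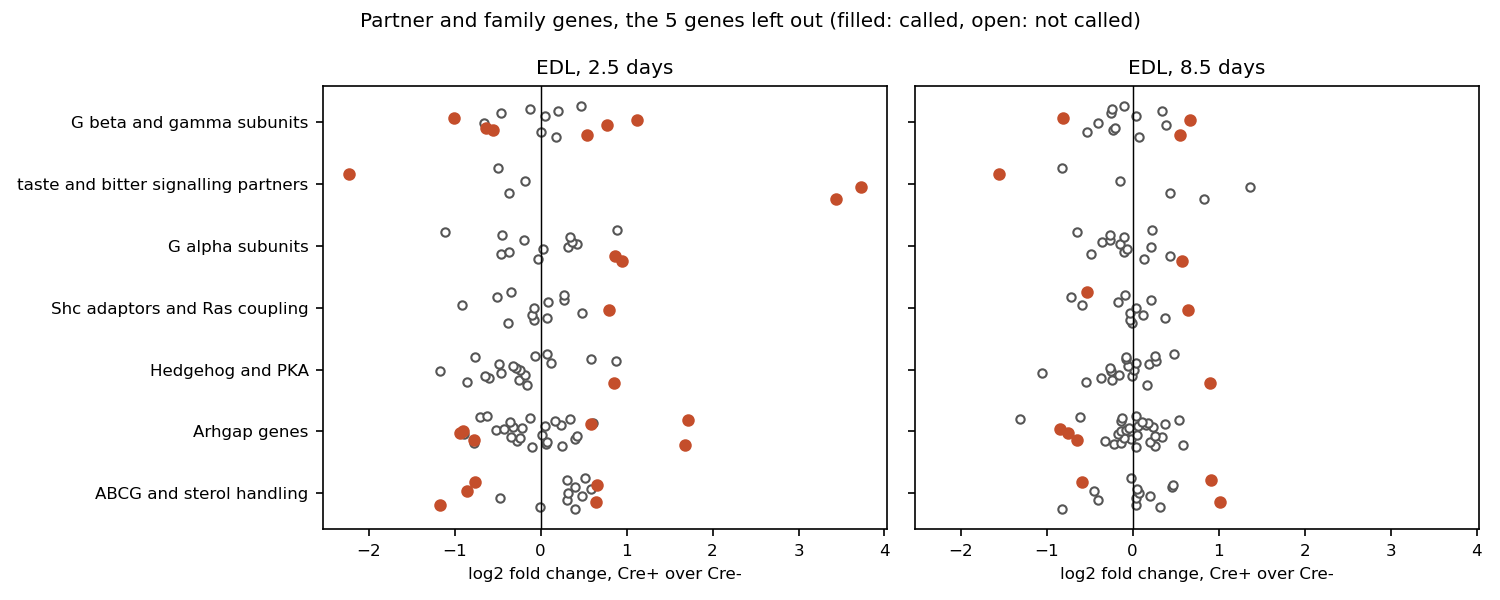
Log2 fold change of Cre+ over Cre- EDL muscles after 2.5 and 8.5 days for the tested genes of the 7 lists, without the 5 genes; filled points were called. The points lie between -2.23 (Tas1r1) and 3.73 (Pou2f3).

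Because several of the 5 genes are known from neurons or taste cells, the markers of these cells were read in the same libraries. The 7 neuron markers summed to between 2.48 and 31.0 CPM in Cre+ EDL and to between 1.98 and 2.63 CPM in Cre- EDL libraries. This sum followed Stmn2 alone, with 108 to 1363 counts in Cre+ and 82 to 106 in Cre- EDL libraries, and Rbfox3, Snap25, Syt1, Elavl3, Elavl4 and Nefl had between 0 and 6 counts in every EDL library. The 5 tuft and taste cell markers summed to between 12.7 and 144 CPM in Cre+ and between 11.7 and 20.1 CPM in Cre- EDL libraries. Avil reached 5075, Dclk1 1143 and the regulator Pou2f3 157 counts in Cre+ EDL, against at most 834, 275 and 8 in Cre- EDL libraries. The defining channel Trpm5 and the taste G protein Gnat3 had at most 9 and 5 counts in Cre+ EDL. The ranges of the neuron sum and of the tuft and taste sum overlapped between Cre+ and Cre- EDL libraries. So did those of the summed markers for Schwann cells, satellite cells, endothelium, macrophages, fibroblasts, adipocytes and liver. The part that these other cells may have in the results was not tested.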

How the data were processed

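RNA of EDL and SOL muscles was sequenced as stranded single-end poly(A) libraries, 24 in all, from a TruSeq RNA kit. The authors aligned reads to mm10 with STAR 2.5.3a and deposited raw counts per gene, the reads that HOMER 4.9.1 assigned uniquely to RefSeq exons. The deposited values other than counts are exon lengths and transcript coordinates. The strand setting of the counting is not given in the sources used here, so reads of overlapping genes on opposite strands may be mixed. The study's methods set aside samples without OSKM overexpression as outliers, and its RNA-seq results give 2.5 and 8.5 days only. The 5.5-day libraries, on which the tests of the 5 genes rest, may be those outliers. All 24 libraries are described here, those of 5.5 days included. All count columns were matched to samples by their labels.

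CPM and FPKM were computed from the total count (36088781 to 54679082 per library) and the exon length. edgeR 4.0.16 (R 4.3.3, limma 3.58.1) fitted 1 mean per group by quasi-likelihood after TMM and a low-count filter (minimum count 10), on the 16 libraries of 2.5 and 8.5 days (15372 genes) or, for 5.5 days, on all 24 (15478 genes), with Benjamini-Hochberg adjustment over all genes tested. Standard errors are the log2 fold change over the square root of F. DESeq2 1.42.0, other scalings, no filter, other sets of libraries and each library left out were alternatives. The fits were tested on simulated data. The study describes the 2 samples of a group as biologically independent. No 2 libraries of a group differed by less than the sampling noise of their counts.

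Same-numbered EDL and SOL libraries of 1 genotype and day deviated together in 6 of 6 pairs (r from 0.173 to 0.445), so the number was taken to pair the muscles of a mouse. The labels name no mouse, and a shared mouse cannot be told apart from shared handling. Cre+ and Cre- libraries of the same number did not (r from -0.169 to 0.0578).

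The 5 genes, the lists and the markers were chosen with earlier results of these data known. Named besides the 5 were the 4 factors, overlapping genes, the 3 genes most like each member, and from each list the 2 genes of highest mean FPKM, up to 3 called genes of largest change in EDL and called paralogs. Promoter windows came from RefSeq (GRCm38.p6), for 4 of the 5 genes. Abcg4 has none. Some genes and 1 list that these rules name are not reported here.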

Additional observations from a re-analysis of the deposited data

Results flagged for a closer look

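Among the 6 Cre- libraries of a muscle, 1 library can lie apart from the other 5. The gap between it and its neighbour was set against the whole range, for the 5 genes in both muscles, in 10 groups of values. In 4 of the 10 the gap was past Dixon's critical value of 0.625. Its rate of 1 in 20 holds for independent normal values and not for such low counts, and some of the 4 share a library. No excess over chance is read from the 4.

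Gng13 had 0.611 CPM (27 counts) in Cre- EDL replicate 1 of 2.5 days, the highest of its group (gap over range 0.803). Arhgap36 had 0.611 CPM (27 counts) in the same library (0.663). Pou5f1 had 4 counts there. Arhgap36 had 2.35 CPM (91 counts) in Cre- SOL replicate 1 of 2.5 days, above the other 5 Cre- SOL libraries (0.753). Opn3 had 0.0926 CPM (4 counts) in Cre- EDL replicate 2 of 5.5 days, the lowest of its group (0.654).

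These libraries bear on results given above. Without the first, the log2 fold change in EDL after 2.5 days was 11.36 in place of 7.69 for Gng13 and 9.89 in place of 7.61 for Arhgap36. Without the Cre- SOL library of 91 counts, the Arhgap36 difference between the muscles after 2.5 days was 4.97 in place of 7.17. Without the Cre- EDL library of 4 counts, Opn3 was no longer called between Cre- EDL and Cre- SOL muscles (-1.17, edgeR adjusted p = 0.306).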

How the results depend on the processing

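Of the tested log2 fold changes of the 5 genes (5.5 days) under other settings, 187 kept their direction and their side of the threshold, 4 passed it anew, 8 no longer passed it and 16 changed sign. The calls gained or lost are given beside their results. None of the 16 had been called, and each changed sign when 1 library was left out. Leaving out 1 library at a time gave, in EDL after 5.5 days, -0.17 to 1.91 for Opn3 and -0.30 to 0.73 for Abcg4 (-0.28 without Cre+ replicate 2). In SOL after 5.5 days it gave -0.69 to 1.34 for Arhgap36, -0.30 to 0.12 for Opn3 (0.059 without Cre- replicate 2), -0.096 to 0.72 for Shc2 and -0.99 to 0.52 for Abcg4. For the difference between muscles after 5.5 days it gave -0.67 to 1.63 for Arhgap36 (also -0.40 and -0.17), -0.095 to 1.98 for Opn3 and -0.42 to 1.19 for Abcg4. Between Cre- muscles it gave -0.18 to 0.62 for Arhgap36 and -0.49 to 1.12 for Abcg4 (also -0.39). Of the values described without a test, 385 kept their sign and moved by less than their standard error, 28 kept it and moved by more, and 7 changed sign. With library size alone, Opn3 in SOL after 2.5 days was at 0.050 in place of -0.11. The other 6 changed sign when 1 library was left out. These were Arhgap36 (-0.42 in place of 0.44, without Cre- replicate 2) and Opn3 (0.29, without Cre- replicate 1) in SOL after 2.5 days, Opn3 in SOL after 8.5 days (-0.078 and -0.022 in place of 0.10, without Cre- replicate 1 or Cre+ replicate 1), and, between 8.5 and 2.5 days in Cre+ EDL, Gng13 (0.18 in place of -0.31, without replicate 2 of 8.5 days) and Shc2 (0.13 in place of -0.80, without replicate 2 of 2.5 days).

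Counts of called genes moved more. A fit of only the libraries compared, which has fewer samples, called 2434 genes in EDL after 2.5 days (3684 in the fit reported), 1021 after 8.5 days (2172), 0 in SOL after 8.5 days (97), 3 in EDL after 5.5 days (47), 376, 12 and 0 for the difference between muscles after 2.5, 8.5 and 5.5 days (654, 91 and 2) and 12 between 8.5 and 2.5 days (880). DESeq2 called 370 genes in SOL after 2.5 days (59) and 171 after 8.5 days, 172 in EDL after 5.5 days, 1457 and 347 for the difference after 2.5 and 8.5 days, and 1441 between 8.5 and 2.5 days. Library size alone called 92 genes in SOL after 2.5 days, 86 in EDL after 5.5 days and 1001 for the difference after 2.5 days. No filter on low counts called 109 in SOL after 2.5 days and 84 in EDL after 5.5 days. All 24 libraries called 112 in SOL after 2.5 days and 1157 for the difference after 2.5 days. The cause of these shifts was not tested.

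Leaving out 1 library at a time gave 2002 to 4280 genes in EDL after 2.5 days, 738 to 2670 after 8.5 days and 3 to 153 after 5.5 days. In SOL it gave 7 to 39, 15 to 132 and 0 to 11 after 2.5, 8.5 and 5.5 days. For the difference between muscles it gave 117 to 1785, 2 to 183 and 0 to 27, between Cre- muscles 2099 to 2260 (3058), and between 8.5 and 2.5 days 34 to 1996.

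With the replicate block, the assumed pairing of the muscles of a mouse, 1019, 175 and 1 genes were called for the difference between muscles after 2.5, 8.5 and 5.5 days. The block changed no call of the 5 genes. No paired analysis was possible between 8.5 and 2.5 days because the times come from different mice.

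With 2 libraries a group and Cre- levels of Gng13 and Arhgap36 near the limit of 3 counts, the size of their fitted changes is poorly fixed, as the standard errors of 0.93 to 1.67 in EDL after 2.5 and 8.5 days show. Opn3 and Abcg4 had 4 to 49 counts in Cre- EDL libraries.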
